A study of Rattus norvegicus with 24 samples.

Results

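ABC transporters are membrane and cytosolic proteins that share an ATP-binding cassette, and the 36 genes described here are those measured on this rat array under a single symbol beginning Abca, Abcb, Abcc, Abcd, Abce, Abcf or Abcg. They are 36 of the 14201 genes to which at least 1 probe set was assigned alone. By class there were 8 Abca, 6 Abcb, 9 Abcc, 3 Abcd, 1 Abce, 3 Abcf and 6 Abcg genes. Abcb1b, Abcg3l2 and Abcg3l4 were represented only by probe sets that name several genes, and no value is given for them. For 27 members there was 1 probe set, and for the 9 with several the probe set with the highest mean over all arrays was used.

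RNA from liver and spleen of 12 wild-type male Sprague-Dawley rats, 46 to 49 days old, was hybridised to 24 Affymetrix arrays, 1 per rat and tissue. Rats were dosed by mouth for 5 days with cyclophosphamide, an alkylating drug that kills dividing cells, at 40 mg/kg/day, or with vehicle. Each treatment was given with or without wood sticks, a form of cage enrichment. This made 4 groups of 3 rats, namely cyclophosphamide with wood, cyclophosphamide without wood, vehicle with wood and vehicle without wood, and the same 12 rats gave both tissues.

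Most ABC proteins use ATP to move lipids, bile constituents, drugs or conjugates across a membrane. In liver, members on the canalicular membrane of hepatocytes secrete phospholipid, sterols and organic anions into bile, and members on the opposite face return conjugates to blood. Macrophages, which spleen holds in large numbers, use Abca1 and Abcg1 to hand cholesterol to lipoproteins. Others work inside mitochondria, lysosomes or peroxisomes, and the E and F classes are soluble proteins that act on ribosomes and move nothing.

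Promoter sequences are shown for the gene pair that varied together most closely in liver (Abcg5 with Abcg8), for the member with the largest fall in spleen (Abcb10) and for the sterol exporter Abca1. RefSeq windows in the GRCr8 build, covering 250 bases before to 50 after a start site, matched 30 of the 36 members, and 6 had none. Abcg5 and Abcg8 are transcribed in opposite directions from start sites 206 bases apart, so their windows share 295 bases and 1 window shows both; the Abcg8 start lies at base 45 of it. Capitals mark 5 motifs on either strand, namely the GATA box GATAA, the TATA box TATAAA, the E-box CACGTG, the CCAAT box and the GC box GGGCGG, which nowhere overlap one another in these windows. The Abcg5 window is chr6:15717686-15717985 on the plus strand, that of Abcb10 is chr19:68880154-68880453 on the minus strand, and that of Abca1 is chr5:72596424-72596723 on the minus strand.
Abcg5: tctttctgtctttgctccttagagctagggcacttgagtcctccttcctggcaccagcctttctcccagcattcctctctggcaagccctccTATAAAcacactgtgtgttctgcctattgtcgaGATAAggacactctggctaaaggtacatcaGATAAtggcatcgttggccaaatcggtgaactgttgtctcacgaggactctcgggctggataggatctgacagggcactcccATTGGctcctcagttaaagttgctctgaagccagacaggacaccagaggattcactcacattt
Abcb10: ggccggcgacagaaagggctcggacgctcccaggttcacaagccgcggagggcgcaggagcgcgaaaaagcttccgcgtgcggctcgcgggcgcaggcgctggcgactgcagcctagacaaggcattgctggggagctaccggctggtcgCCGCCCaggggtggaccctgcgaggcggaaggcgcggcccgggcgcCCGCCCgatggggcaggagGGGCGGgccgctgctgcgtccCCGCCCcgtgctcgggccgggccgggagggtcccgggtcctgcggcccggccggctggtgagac
Abca1: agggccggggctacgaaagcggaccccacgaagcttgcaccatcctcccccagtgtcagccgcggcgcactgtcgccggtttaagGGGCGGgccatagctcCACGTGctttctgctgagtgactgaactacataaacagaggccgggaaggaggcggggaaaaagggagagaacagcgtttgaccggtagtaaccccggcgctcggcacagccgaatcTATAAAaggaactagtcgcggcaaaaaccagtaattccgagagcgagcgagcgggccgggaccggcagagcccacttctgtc

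The Abcb10 window held 4 matches of the GC box GGGCGG and no GATAA. The shared Abcg5 and Abcg8 window held 2 matches of GATAA, 1 of TATAAA and 1 of CCAAT and no GC box. The Abca1 window held 1 match each of the GC box, the E-box and the TATA box. GGGCGG occurred in 21 of the 30 member windows, against 33.1% of all 33469 windows, GATAA in 6 of the 30 against 26.5%, TATAAA in 4 against 14.2%, CACGTG in 2 against 6.42% and CCAAT in 11 against 37.5%. Abcg5 and Abcg8, whose windows share 295 bases, were counted separately among the 30, so each motif they share entered its count for both genes. The 33469 windows outnumber the 14201 genes measured here, so the member and background shares come from unlike sets. No enrichment or depletion is read from them. A match describes letters only, and the absence of one says nothing about a factor.

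Values are log2 intensities, and changes are differences of log2 values with the standard error (SE) of a linear model fitted with limma to the 12 arrays of a tissue. A gene was called at an adjusted p under 0.05, with p-values adjusted by the Benjamini-Hochberg method over all genes tested in that comparison. All 36 members had a value on every spleen array, and 30 also had one on every liver array. Levels of different genes are not set against each other, since probes differ in brightness, and the number of arrays limits the precision of every value.

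Some arrays stood apart. In spleen, the 3 arrays of vehicle rats without wood and 1 of a cyclophosphamide rat without wood (2005) had 1778 to 1920 blank cells, against 1021 to 1183 on the other 8. In liver, cyclophosphamide rat 2003 had the most blanks, 6060, and correlated least with the remaining livers, at a mean r of 0.847 where no other liver was under 0.906. Hepatocyte markers summed to 16.2 to 16.4 (log2 of the summed intensity) in all liver arrays, against 8.52 to 9.88 in all spleen arrays. The spleen array of cyclophosphamide rat 2003 also carried exocrine pancreas markers, at 14.0.

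Cyclophosphamide changed 21 of the 36 ABC genes in spleen, 11 upward and 10 downward. That is 58.3% of the members, against 55.0% of all 13614 genes tested (26.9% higher and 28.1% lower), so the share was close to the background. Counts of spleen drug calls by role and by gene list below stand against these same shares. The conjugate exporter Abcc3 rose most, 3.29-fold, followed by Abca8a and Abca2 at 3.22-fold each, while the mitochondrial transporter Abcb10 fell to 0.288 of its vehicle level. The median log2 change over the members was -0.00, against -0.02 for all genes. The 6 cyclophosphamide and 6 vehicle arrays did not overlap for 13 members, 8 higher and 5 lower, which is 36.1% against 31.2% of the 12837 genes with all spleen values (16.1% higher and 15.1% lower). Without rat 2003 there were 22 calls.

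**Figure D1:**
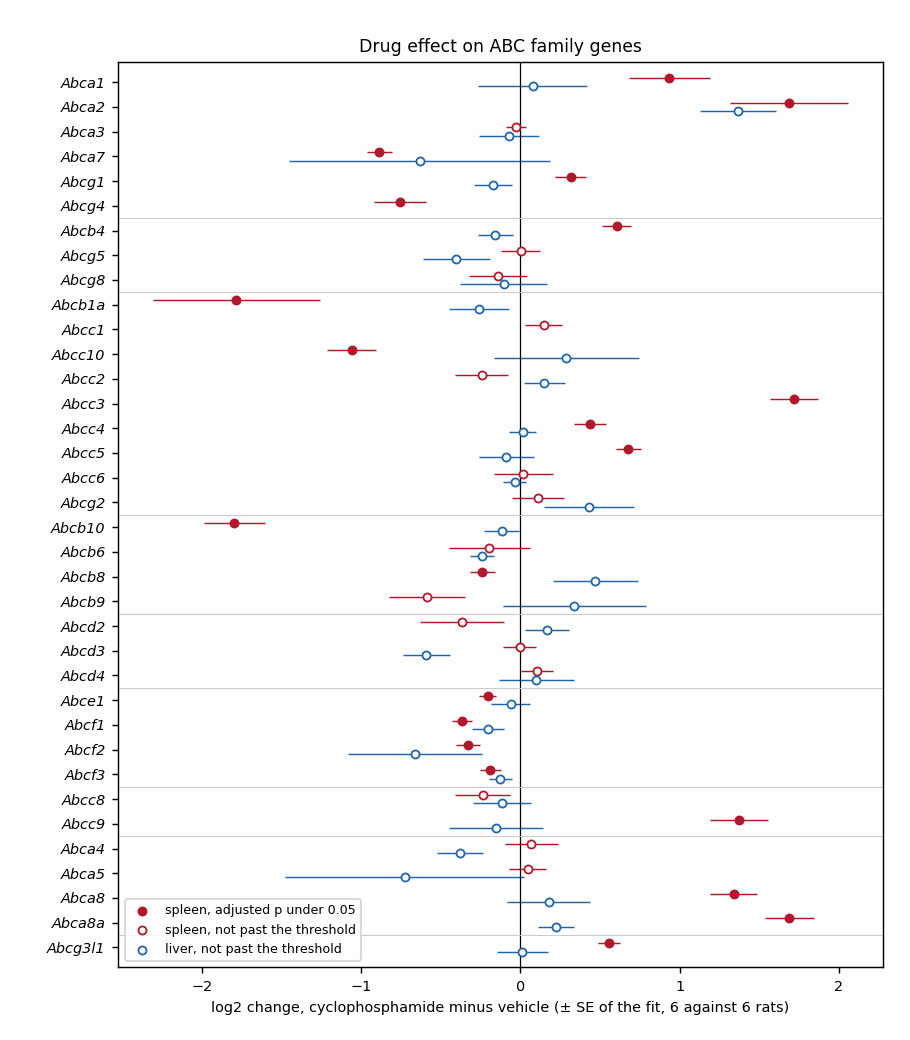
Log2 change with cyclophosphamide (cyclophosphamide minus vehicle, 6 rats against 6) for each ABC gene in spleen (red) and liver (blue), grouped by role between the grey lines; bars are the SE, blanks in liver leave fewer rats for some genes, and filled points passed an adjusted p under 0.05. In spleen 21 points are filled, spanning -1.79 for Abcb10 to 1.72 for Abcc3, and in liver none is.

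Spleen is a mixture of cells, and in these bulk samples fewer cells of a type cannot be told apart from less RNA per cell. With cyclophosphamide, 10 of 10 tested erythroid markers fell, as did 6 of 6 B cell and 8 of 8 dividing-cell markers, while 9 of 10 macrophage, 8 of 9 stromal and 6 of 7 endothelial markers rose (1 endothelial marker fell). Of the platelet markers 5 of 6 fell, of the granulocyte markers 5 of 6 fell and 1 rose, and of the 8 T cell markers 2 rose and 2 fell. Summed erythroid markers ranged over 9.50 to 11.5 in cyclophosphamide rats and 14.6 to 15.1 in vehicle rats. Summed platelet markers ranged over 11.3 to 11.9 in cyclophosphamide rats and 12.4 to 13.1 in vehicle rats, and granulocyte markers over 8.64 to 11.1 in cyclophosphamide rats and 11.6 to 13.8 in vehicle rats. Summed macrophage markers ranged over 15.4 to 15.5 in cyclophosphamide rats and 14.4 to 14.7 in vehicle rats, and stromal markers over 13.5 to 13.8 in cyclophosphamide rats and 12.2 to 12.6 in vehicle rats. None of these lists was blank throughout on any spleen array. These shifts run alongside every rise and fall below, and their part in them was not tested.

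Of the 6 genes of sterol and phospholipid export, 3 rose in spleen with cyclophosphamide and 2 fell, where 26.9% of all genes rose and 28.1% fell. Abca1, which loads cholesterol and phospholipid onto apolipoprotein A-I, stood at 9.90, 10.98 and 10.03 in cyclophosphamide rats with wood, 11.43, 11.47 and 11.17 in cyclophosphamide rats without wood, 10.26, 10.51 and 9.88 in vehicle rats with wood, and 10.14, 9.75 and 8.82 in vehicle rats without wood. The 3 cyclophosphamide rats without wood were the highest of all 12, and the groups with wood overlapped. The change was 0.94 ± 0.25 (SE; limma adjusted p = 0.0107) over both housings, 0.09 ± 0.36 with wood and 1.78 ± 0.36 without wood; the difference between housings had an adjusted p of 0.203. All 4 probe sets of Abca1 gave a rise over both housings, of 0.94 to 1.45. With a term for the 4 arrays with many blanks the change was 0.84 (adjusted p = 0.0564), and with wood alone it was not called (adjusted p = 0.884).

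Abcg1, which passes cholesterol to high-density lipoprotein, stood at 11.08, 11.16 and 11.13 in cyclophosphamide rats with wood and 10.89, 10.98 and 11.17 without, and at 10.80, 10.83 and 10.55 in vehicle rats with wood and 11.05, 10.52 and 10.76 without. Only vehicle rat 1001, at 11.05, reached into the cyclophosphamide range. The rise was 0.32 ± 0.10 (limma adjusted p = 0.0205), and its other probe sets gave 0.36 ± 0.10 and 0.18 ± 0.08. Abca2, an endolysosomal lipid transporter best known from the myelin-forming cells of brain, stood at 8.47, 7.98 and 7.84 with wood and 7.83, 8.2 and 7.44 without in cyclophosphamide rats, and at 7.42, 7.0 and 6.98 with wood and 4.13, 5.41 and 6.71 without in vehicle rats. All 6 cyclophosphamide rats lay above all 6 vehicle rats, and the vehicle rats without wood were the lowest and most spread. The rise was 1.69 ± 0.37 (limma adjusted p = 0.00319), but 0.96 ± 0.52 (adjusted p = 0.18) in rats with wood alone. That miss depended on the arrays that shared the spread. Fitted without the 4 arrays with many blanks, the same 0.96 with wood was called (limma adjusted p = 0.0101).

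Abca7, a relative of Abca1 linked to phagocytosis, fell. It stood at 7.98, 8.16 and 8.31 with wood and 7.90, 8.09 and 8.16 without in cyclophosphamide rats, and at 8.93, 8.78 and 9.04 with wood and 9.06, 9.01 and 9.11 without in vehicle rats. The groups were tight and did not overlap, and the change was -0.89 ± 0.08 (limma adjusted p = 1.04e-05). Abcg4, a sterol exporter known mainly from brain, stood at 5.5, 5.53 and 5.61 with wood and 5.25, 5.34 and 5.76 without in cyclophosphamide rats, and at 5.96, 5.61 and 6.27 with wood and 6.13, 6.59 and 6.97 without in vehicle rats. Only vehicle rat 3003, at 5.61, lay within the cyclophosphamide range. The change was -0.75 ± 0.16 (limma adjusted p = 0.00293), but -0.39 (adjusted p = 0.212) in rats with wood alone. Abca3, which packs surfactant phospholipid in lung, changed by -0.03 ± 0.06 (limma adjusted p = 0.714).

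Among 17 partner genes of sterol control, 14 were tested in spleen, where 11 rose and 2 fell with cyclophosphamide. The sterol receptor subunit Nr1h3 rose by 1.04 ± 0.08 (limma adjusted p = 3.74e-06) and its partner Rxra by 1.86 ± 0.28 (adjusted p = 0.000336). The phospholipid transfer protein gene Pltp rose by 1.51 ± 0.24 (adjusted p = 0.000415), while the desaturase Scd fell by 3.94 ± 0.28 on the log2 scale (adjusted p = 3.07e-06). The partner list's median change was 0.53, against -0.02 for all genes.

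**Figure D2:**
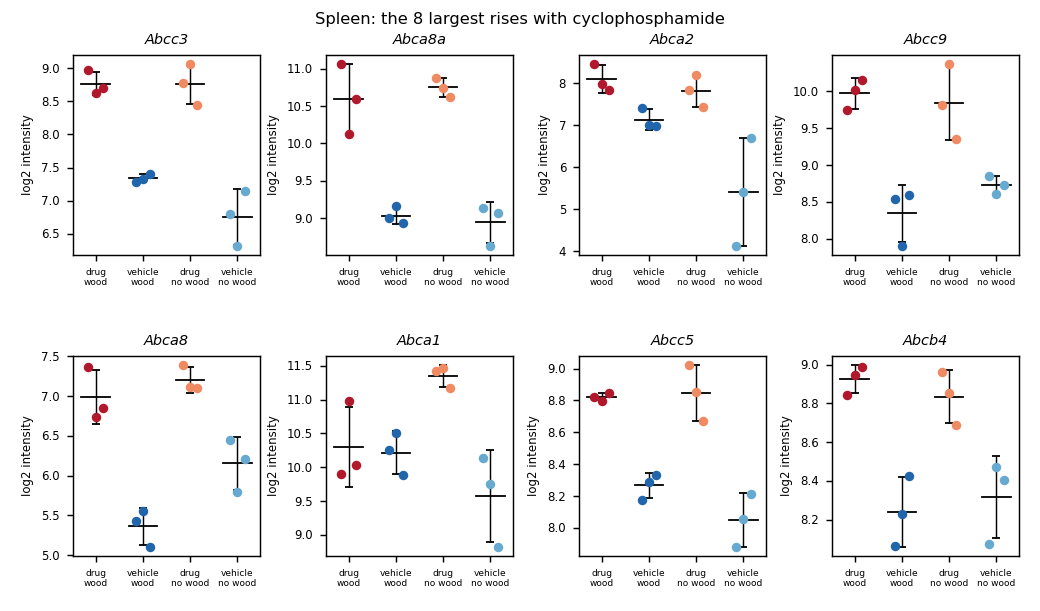
Spleen log2 intensity of the 8 ABC genes with the largest called rises, 1 point per rat in each of the 4 groups; horizontal lines are group means and bars the SD of 3 rats, with axes that do not start at 0. For Abcc3, Abca8a, Abca2, Abcc9, Abca8, Abcc5 and Abcb4 all 6 cyclophosphamide rats lie above all 6 vehicle rats, and for Abca1 the groups with wood overlap.

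In the multidrug and conjugate exporters, 3 of 9 rose and 2 fell in spleen, where 26.9% of all genes rose and 28.1% fell. Abcc3 (MRP3), which sends glucuronides across the basolateral membrane of epithelia, stood at 8.97, 8.63 and 8.71 in cyclophosphamide rats with wood, 8.77, 9.06 and 8.45 in cyclophosphamide rats without wood, 7.29, 7.32 and 7.41 in vehicle rats with wood, and 6.80, 6.31 and 7.15 in vehicle rats without wood. All cyclophosphamide rats were above all vehicle rats, by at least 1 log2 unit. The rise was 1.72 ± 0.15 (limma adjusted p = 9.57e-06). It was 1.43 ± 0.21 with wood and 2.01 ± 0.21 without wood (adjusted p = 0.444 for the difference).

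Abcc5 and Abcc4 export cyclic nucleotides and nucleotide analogues. Abcc5 stood at 8.82, 8.79 and 8.84 with wood and 9.02, 8.86 and 8.67 without in cyclophosphamide rats, and at 8.18, 8.29 and 8.33 with wood and 7.88, 8.06 and 8.21 without in vehicle rats. No cyclophosphamide rat was as low as any vehicle rat, and the rise was 0.68 ± 0.08 (limma adjusted p = 5.88e-05). Abcc4 stood at 7.83, 7.60 and 7.63 with wood and 7.69, 7.61 and 7.34 without in cyclophosphamide rats, and at 7.03, 7.03 and 7.41 with wood and 7.17, 7.05 and 7.39 without in vehicle rats. Cyclophosphamide rat 2005 lay below vehicle rats 3005 and 1005, and the rise was 0.44 ± 0.10 (limma adjusted p = 0.00466).

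Abcb1a encodes P-glycoprotein, the broad drug efflux pump, and near-identical Abcb1b may share its signal. Its spleen signal was dim, at 3.03, 3.46 and 1.91 with wood and 1.08, 2.63 and 4.71 without in cyclophosphamide rats, and at 3.80, 3.90 and 4.04 with wood and 5.02, 5.41 and 5.35 without in vehicle rats. Cyclophosphamide rats spread widely, and rat 2005 alone reached the vehicle range. The change was -1.78 ± 0.52 (limma adjusted p = 0.0153), against -0.69 ± 0.18 on its other probe set. It missed the threshold with the term for blanks (-0.83, adjusted p = 0.104) and in rats with wood alone (-1.11, adjusted p = 0.274).

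Abcc10 (MRP7), whose human protein carries taxanes out of cells, fell. It stood at 5.64, 6.03 and 5.54 with wood and 5.76, 6.26 and 5.95 without in cyclophosphamide rats, and at 6.99, 6.90 and 6.79 with wood and 7.26, 7.11 and 6.46 without in vehicle rats. The groups did not overlap, and the change was -1.06 ± 0.15 (limma adjusted p = 0.00025). The other members of this role did not pass the test, with changes of 0.15 for Abcc1, -0.24 for Abcc2, 0.02 for Abcc6 and 0.11 for Abcg2. Abcc2, the canalicular conjugate pump, stood at 5.05, 4.91 and 5.03 with wood and 5.10, 5.13 and 5.93 without in cyclophosphamide spleens, and at 5.38, 5.48 and 5.07 with wood and 5.47, 5.29 and 5.91 without in vehicle spleens, with overlap throughout.

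Of the 3 bile lipid exporters, only Abcb4 was called in spleen. Abcb4, which flips phosphatidylcholine into bile in liver, stood at 8.85, 8.94 and 8.99 with wood and 8.96, 8.85 and 8.69 without in cyclophosphamide spleens, and at 8.06, 8.23 and 8.43 with wood and 8.07, 8.47 and 8.40 without in vehicle spleens. Every cyclophosphamide rat was above every vehicle rat, and the rise was 0.60 ± 0.09 (limma adjusted p = 0.000383). Abcg5 and Abcg8 encode proteins that pair into a single sterol exporter. Abcg5 stood at 5.30, 5.69 and 5.5 with wood and 5.87, 5.99 and 5.78 without in cyclophosphamide spleens, and at 5.41, 5.59 and 6.03 with wood and 5.85, 5.76 and 5.47 without in vehicle spleens. Abcg8 stood at 5.26, 5.75 and 5.86 with wood and 5.5, 5.96 and 5.37 without in cyclophosphamide spleens, and at 5.85, 5.73 and 5.77 with wood and 5.96, 6.09 and 5.13 without in vehicle spleens. Both overlapped, with changes of 0.00 ± 0.12 and -0.14 ± 0.18.

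Among the 4 B-class transporters of mitochondria and lysosomes, 2 fell and none rose in spleen, where 28.1% of all genes fell and 26.9% rose. Abcb10, an inner-membrane protein of mitochondria needed for haemoglobin synthesis in red cell precursors, stood at 8.02, 7.83 and 7.66 in cyclophosphamide rats with wood, 8.17, 8.10 and 8.09 in cyclophosphamide rats without wood, 8.72, 8.98 and 9.97 in vehicle rats with wood, and 10.13, 10.57 and 10.28 in vehicle rats without wood. The cyclophosphamide rats formed a narrow band below all vehicle rats. The change was -1.79 ± 0.19 (limma adjusted p = 3.42e-05), and -1.47 ± 0.16 on its other probe set.

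Abcb8, another mitochondrial member, stood at 7.38, 7.28 and 7.20 with wood and 6.92, 7.32 and 6.96 without in cyclophosphamide rats, and at 7.39, 7.31 and 7.30 with wood and 7.50, 7.58 and 7.39 without in vehicle rats. The groups overlapped; the change was -0.24 ± 0.08 (limma adjusted p = 0.0275), and -0.05 (adjusted p = 0.776) in rats with wood alone. Abcb6, a porphyrin transporter, stood at 7.17, 7.25 and 7.19 with wood and 7.39, 7.30 and 6.27 without in cyclophosphamide rats, and at 7.19, 7.58 and 7.90 with wood and 6.33, 7.62 and 7.11 without in vehicle rats. Its change was -0.19 ± 0.26 (adjusted p = 0.542), and that of the lysosomal peptide transporter Abcb9 -0.59 ± 0.24 (adjusted p = 0.06).

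The haem and iron-sulphur partners of these mitochondrial genes showed 10 falls and 2 rises among 16 tested of 18 in spleen. The erythroid enzyme of haem synthesis Alas2 fell by 6.65 ± 0.19 on the log2 scale (limma adjusted p = 4.21e-08) and the last enzyme, Fech, fell by 3.16 ± 0.21 (adjusted p = 2.04e-06). The mitochondrial iron importer Slc25a37 fell by 3.05 ± 0.17 (adjusted p = 9.44e-07), and Alad fell by 2.78 ± 0.28 (adjusted p = 2.15e-05). Alas2 is also 1 of the erythroid markers, all 10 of which fell.

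**Figure D3:**
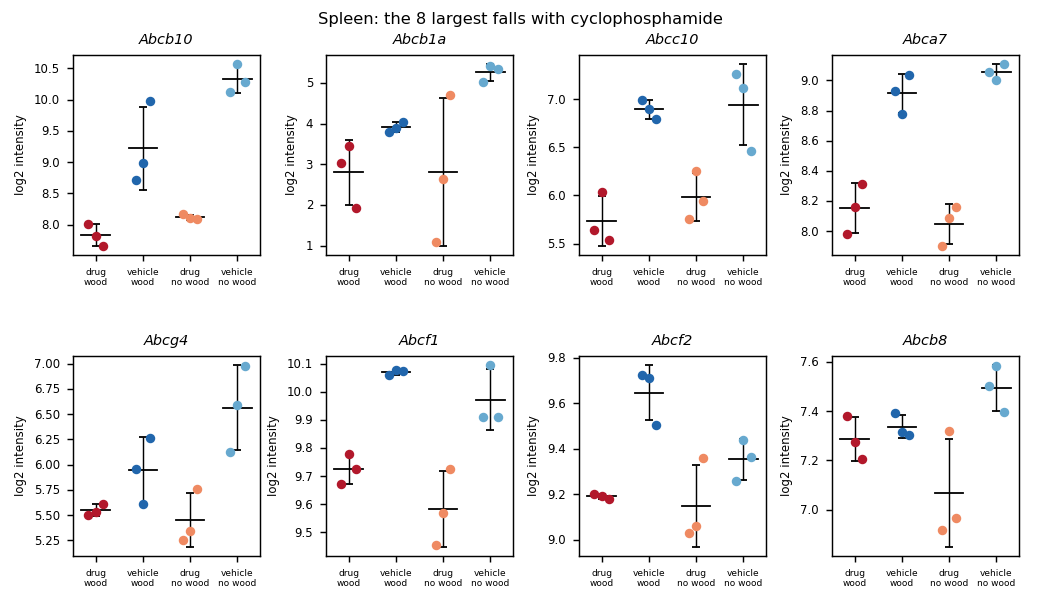
Spleen log2 intensity of the 8 ABC genes with the largest called falls, 1 point per rat in each of the 4 groups; horizontal lines are group means and bars the SD of 3 rats, with axes that do not start at 0. Abcb10, Abcc10, Abca7 and Abcf1 do not overlap between cyclophosphamide and vehicle, while Abcb1a ranges over 1.08 to 4.71 in cyclophosphamide rats and 3.80 to 5.41 in vehicle rats.

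All 4 members that act on ribosomes fell by small amounts in spleen, where 28.1% of all genes fell. Abcf1, which takes part in translation initiation, stood at 9.67, 9.78 and 9.72 with wood and 9.45, 9.57 and 9.72 without in cyclophosphamide rats, and at 10.06, 10.08 and 10.07 with wood and 9.91, 10.10 and 9.91 without in vehicle rats. The groups did not overlap, and the change was -0.37 ± 0.06 (limma adjusted p = 0.000714). Abcf2 stood at 9.20, 9.19 and 9.18 with wood and 9.03, 9.06 and 9.36 without in cyclophosphamide rats, and at 9.72, 9.71 and 9.51 with wood and 9.26, 9.44 and 9.36 without in vehicle rats. Cyclophosphamide rat 2005 overlapped the vehicle rats, and the change was -0.33 ± 0.07 (limma adjusted p = 0.00382).

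Abce1, which splits ribosomes after termination, changed by -0.21 ± 0.05 (limma adjusted p = 0.0079), with a range of 9.0 to 9.24 in cyclophosphamide rats just under 9.24 to 9.39 in vehicle rats. Abcf3 changed by -0.19 ± 0.07 (limma adjusted p = 0.0336), but its other probe set gave 0.29 ± 0.15 and the mean of both 0.05, so its direction depended on the probe set. Abcf3 also missed the threshold with the term for blanks (-0.19, adjusted p = 0.0821), in rats with wood alone (-0.17, adjusted p = 0.179) and in rats without wood alone (-0.21, adjusted p = 0.0987). Of 13 translation partners, 12 were tested, of which 8 fell and 1 rose. The kinase Eif2ak4, which senses uncharged tRNA, fell by 0.77 ± 0.09 on the log2 scale (limma adjusted p = 4.68e-05), and the ribosome rescue factor Pelo rose by 0.39 ± 0.12 (adjusted p = 0.0175).

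Of the sulphonylurea receptors, which form the regulatory ring of ATP-sensitive potassium channels, Abcc9 rose in spleen. It stood at 9.74, 10.02 and 10.16 with wood and 9.81, 10.38 and 9.36 without in cyclophosphamide rats, and at 8.54, 7.90 and 8.59 with wood and 8.86, 8.61 and 8.73 without in vehicle rats. The groups did not overlap. The rise was 1.37 ± 0.18 (limma adjusted p = 0.000145), and its 3 probe sets gave 1.23 to 1.37. The pore subunit that joins Abcc9 in vessels, Kcnj8, rose by 1.62 ± 0.11 (adjusted p = 2.62e-06), while Kcnj11 changed by 0.12 ± 0.14 (adjusted p = 0.481). Abcc8, the receptor of pancreatic beta cells, changed by -0.24 ± 0.17 (adjusted p = 0.275).

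In the remaining A class, Abca8 and Abca8a rose in spleen, and Abca4, the retinal exporter, and the lysosomal Abca5 did not pass the test (0.07 and 0.05). Abca8a stood at 11.07, 10.12 and 10.60 with wood and 10.88, 10.74 and 10.63 without in cyclophosphamide rats, and at 8.99, 9.15 and 8.94 with wood and 9.14, 8.62 and 9.06 without in vehicle rats. The groups did not overlap, and the rise was 1.69 ± 0.16 (limma adjusted p = 1.33e-05). Abca8 stood at 7.37, 6.74 and 6.85 with wood and 7.39, 7.12 and 7.10 without in cyclophosphamide rats, and at 5.43, 5.55 and 5.10 with wood and 6.45, 5.80 and 6.21 without in vehicle rats. The groups did not overlap, and the rise was 1.34 ± 0.15 (limma adjusted p = 4.53e-05), but its other probe set gave -0.48 ± 0.17. Abca8 and Abca8a are close relatives whose probes may share signal.

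Abcg3l1, a rodent G-class gene, rose by 0.56 ± 0.07 (limma adjusted p = 0.000105), with ranges of 8.93 to 9.24 in cyclophosphamide rats and 8.38 to 8.74 in vehicle rats. Of the 3 peroxisomal and cobalamin members none was called in spleen. Abcd2, an importer of very long chain fatty acids into peroxisomes, stood at 4.70, 5.10 and 4.05 with wood and 3.99, 5.14 and 4.96 without in cyclophosphamide rats, and at 5.45, 4.72 and 4.36 with wood and 5.23, 5.02 and 5.37 without in vehicle rats. It was dim and overlapped throughout, with a change of -0.37 ± 0.26 (adjusted p = 0.261). Abcd3 changed by -0.00 ± 0.10 and the lysosomal cobalamin transporter Abcd4 by 0.10 ± 0.10. Their 15 tested peroxisome partners, of 19, showed 8 rises and 2 falls, among them Pex11a at 1.04 ± 0.12 (limma adjusted p = 4.41e-05) and Pex16 at -0.89 ± 0.16 (adjusted p = 0.00116).

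Of 3 ABC genes named outside the family scheme, Tap1, which feeds peptides to class I molecules, fell by 0.59 ± 0.09 on the log2 scale in spleen (limma adjusted p = 0.000381). Tap2 changed by -0.35 ± 0.16 (adjusted p = 0.0857) and the chloride channel gene Cftr by -0.37 ± 0.18 (adjusted p = 0.104). Among 9 peptide loading partners 3 rose and 2 fell, with Psmb10 at -0.56 ± 0.07 (adjusted p = 0.000104) and Pdia3 at 0.34 ± 0.05 (adjusted p = 0.000494). Among 9 tested receptors and coregulators of drug response, of 12, 5 rose and 1 fell, with Ahr, the dioxin receptor, at 1.17 ± 0.18 (adjusted p = 0.000384) and Nfe2l2, the oxidative stress factor, at 0.56 ± 0.06 (adjusted p = 2.56e-05).

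Within each housing the drug effect in spleen was called for 15 members with wood, 9 higher and 6 lower (41.7% against 38.4% of all genes, 19.9% higher and 18.5% lower), and for 16 without wood, 9 higher and 7 lower (44.4% against 45.1%, 22.7% higher and 22.4% lower). Of the 21 members called over both housings, Abca1, Abca2, Abcb1a, Abcb8, Abcf3 and Abcg4 missed the threshold with wood, and Abcc4, Abce1, Abcf2, Abcf3 and Abcg1 missed it without. Fitted without the 4 arrays with many blanks, Abca2 passed it with wood, while Abca1, Abcb1a, Abcb8, Abcf3 and Abcg4 still missed it. The interaction of drug and wood was called for 0 of 36 members, against 0.705% of all genes. In limma 3 of the 36 had an unadjusted p under 0.05, against 1770 of all 13614 genes. The largest was Abca1, described above.

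In liver cyclophosphamide changed none of the 33 members tested by the adjusted limma threshold, against 0.812% of all 12683 genes. At an unadjusted p under 0.05 there were 4 members (and 1811 genes in all). The changes ranged from -0.73 to 1.37 with a median of -0.09, against -0.02 for all genes. Abcc1, Abcc3 and Abcg4 could not be tested, since at least 1 group was blank in every rat; Abcc3 had a value on only 1 liver array, that of cyclophosphamide rat 2003. Without rat 2003 the count was also 0.

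The largest liver change was that of Abca2, at 5.80, 6.22 and 6.60 with wood and 6.46 and 5.63 without in cyclophosphamide rats, where rat 2003 was blank, and at 4.66 and 4.89 with wood and 4.90 and 4.59 without in vehicle rats, where rats 3005 and 1003 were blank. Every measured cyclophosphamide rat was above every measured vehicle rat. The change was 1.37 ± 0.24, with an adjusted p of 0.0692 that missed the threshold. Abcd3, a peroxisomal importer of fatty acids and bile acid intermediates, stood at 11.08, 10.60 and 11.25 with wood and 10.99, 10.25 and 10.73 without in cyclophosphamide rats, and at 11.42, 11.16 and 11.36 with wood and 11.53, 11.47 and 11.50 without in vehicle rats. Only cyclophosphamide rat 4005 reached the vehicle range, and the change of -0.59 ± 0.15 had an adjusted p of 0.118.

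The canalicular and sinusoidal exporters of liver did not pass the test. Abcc2 stood at 10.54, 10.88 and 10.73 with wood and 10.22, 10.52 and 10.50 without in cyclophosphamide livers, and at 10.45, 10.30 and 10.74 with wood and 10.19, 10.14 and 10.68 without in vehicle livers, a change of 0.15 ± 0.13. Abcb4 stood at 10.01, 10.44 and 10.38 with wood and 10.31, 10.38 and 9.90 without in cyclophosphamide livers, and at 10.52, 10.41 and 10.32 with wood and 10.34, 10.36 and 10.40 without in vehicle livers, a change of -0.16 ± 0.11. Both genes overlapped between treatments. Abcb1a stood at 7.35, 7.86 and 7.84 with wood and 6.93, 7.05 and 8.01 without in cyclophosphamide livers, and at 7.79, 7.90 and 7.85 with wood and 7.78, 7.53 and 7.76 without in vehicle livers. The low values were those of cyclophosphamide rats 2001, 2003 and 4001, and the change was -0.26 ± 0.19 (adjusted p = 0.568).

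Abcg2, the breast cancer resistance protein, varied most among these, at 5.88, 6.07 and 6.94 with wood and 7.22, 7.09 and 6.89 without in cyclophosphamide livers, and at 5.92, 6.42 and 7.16 with wood and 6.70, 5.58 and 5.74 without in vehicle livers. The change was 0.43 ± 0.28 (adjusted p = 0.534). Cyclophosphamide rats 4001 and 4003 and vehicle rats 3001, 1003 and 1005 made up the low end, so the treatments overlapped. Abcc4 stood at 6.13, 5.95 and 6.22 with wood and 6.12, 5.99 and 5.92 without in cyclophosphamide livers, and at 6.20, 5.89 and 6.17 with wood and 5.99, 6.08 and 5.91 without in vehicle livers. It was nearly level across the 12 livers, with a change of 0.01 ± 0.09. The solute carriers and flippases of hepatocytes, 9 tested of 13, and the drug-sensing receptors, 10 tested of 12, had no call in liver either.

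Abca1 in liver stood at 8.89, 10.28 and 8.57 with wood and 10.73, 10.59 and 10.21 without in cyclophosphamide rats, and at 9.68, 10.67 and 10 with wood and 9.95, 9.83 and 8.68 without in vehicle rats, with overlap and a change of 0.08 ± 0.34 over both housings. Without wood all cyclophosphamide livers lay above all vehicle livers, a change of 1.03, and with wood the change was -0.87. The difference between housings was not called. Over both housings, the other probe sets of Abca1 gave 0.29 ± 0.15, 0.38 ± 0.14 and 0.36 ± 0.37 in liver, all above the one used. Abcg1 stood at 7.43, 7.48 and 7.42 with wood and 7.04, 7.36 and 6.94 without in cyclophosphamide livers, and at 7.42, 7.86 and 7.23 with wood and 7.46, 7.38 and 7.34 without in vehicle livers. Cyclophosphamide rats 2001 and 2005 were the lowest, and the change was -0.17 ± 0.12 (adjusted p = 0.546). The other probe sets of Abcg1 gave -0.03 ± 0.10 and 0.20 ± 0.15 in liver, so its direction there depended on the probe set.

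Abcb10 stood at 7.35, 7.39 and 7.55 with wood and 7.47, 7.78 and 7.41 without in cyclophosphamide livers, and at 7.85, 7.4 and 7.34 with wood and 7.66, 7.76 and 7.65 without in vehicle livers. Abcb6 stood at 7.50, 7.50 and 7.55 with wood and 7.03, 7.05 and 7.13 without in cyclophosphamide livers, and at 7.61, 7.68 and 7.57 with wood and 7.28, 7.65 and 7.42 without in vehicle livers. Abcb10 overlapped, and for Abcb6 the 3 cyclophosphamide rats without wood lay below all the others. Abcb10 changed by -0.12 ± 0.11 and Abcb6 by -0.24 ± 0.07 (adjusted p = 0.19), while Alas2 fell by 3.28 ± 0.15 on the log2 scale in the same livers (limma adjusted p = 1.14e-05). Summed erythroid markers in liver ranged over 7.55 to 9.35 in cyclophosphamide rats and 13.05 to 13.74 in vehicle rats, with 3 of 9 tested markers called lower, and 5 of 10 macrophage markers were called lower. Abcd2 stood at 5.32, 4.86 and 4.90 with wood and 5.58, 5.16 and 5.36 without in cyclophosphamide livers, and at 5.12, 4.92 and 5.41 with wood and 4.74, 5.19 and 4.80 without in vehicle livers, with overlap and a change of 0.17 ± 0.14.

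Among genes that handle cyclophosphamide and its metabolites, 1 of 12 tested, of 14, was called in liver, namely the glutathione transferase Gsta3 at 2.89 ± 0.43 (limma adjusted p = 0.0209). In spleen 3 of 12 rose and 2 fell, among them the aldehyde dehydrogenase Aldh3a1 at 1.08 ± 0.23 (adjusted p = 0.00279) and the glutathione synthesis subunit Gclm at -0.69 ± 0.13 (adjusted p = 0.0015).

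Abcg5 and Abcg8, which share the promoter window shown above, varied together from liver to liver. Abcg5 stood at 8.52, 8.06 and 9.17 with wood and 8.57, 9.01 and 8.28 without in cyclophosphamide rats, and at 8.57, 8.81 and 8.84 with wood and 9.67, 8.96 and 9.18 without in vehicle rats. Abcg8 stood at 6.49, 5.89 and 7.28 with wood and 6.44, 6.88 and 6.10 without in cyclophosphamide rats, and at 6.20, 6.85 and 6.17 with wood and 7.33, 6.37 and 6.78 without in vehicle rats. Vehicle rat 1001 was the highest for both genes and cyclophosphamide rat 4003 the lowest, and the drug changes (-0.40 ± 0.21 and -0.10 ± 0.27) did not pass the test.

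Across the 12 livers Pearson's r between Abcg5 and Abcg8 was 0.858 (permutation p = 0.00037, adjusted 0.00074 over 2 tissues) and Spearman's rho 0.769 (permutation p = 0.00473, adjusted 0.00946). Without the 2 rats farthest from the median of Abcg5, r was 0.725. It was 0.988 within the 6 cyclophosphamide rats, 0.838 within the 6 vehicle rats and 0.855 without rat 2003. The pair was picked after its values had been seen, as the highest r of 435 member pairs in liver, so the p-values are no independent evidence. In spleen, where both genes were dim, r was 0.417 (permutation p = 0.178) and rho 0.364 (permutation p = 0.246), and the pair ranked 138th of 630.

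**Figure D4:**
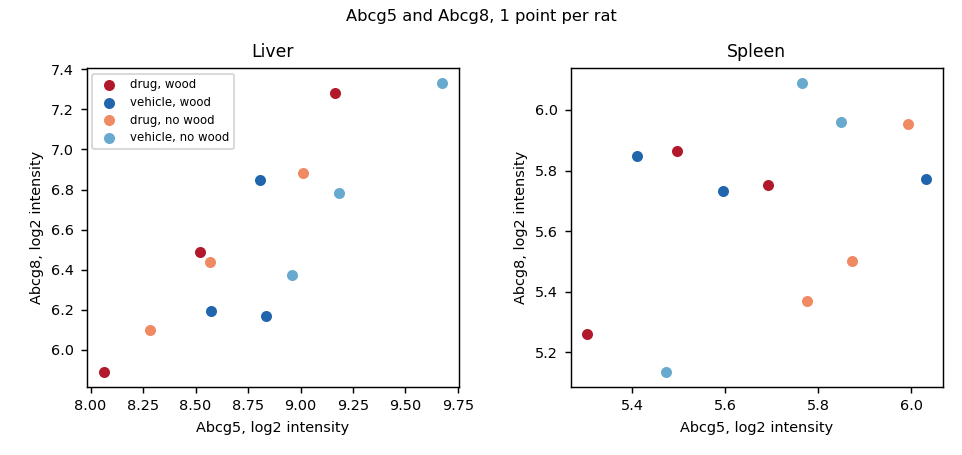
Log2 intensity of Abcg8 against Abcg5 in liver (left) and spleen (right), 1 point per rat, coloured by group; the panels have different axis ranges. The liver points lie along a rising line (r 0.858) with the 4 groups intermingled, and the spleen points are scattered (r 0.417).

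In vehicle rats most ABC genes differed between the tissues, with 28 of 33 tested members called between liver and spleen, 11 higher and 17 lower in liver. That is 84.8%, against 79.5% of all 12474 genes (20.2% higher and 59.2% lower). The median over all genes was -0.72 and moved to -0.29 with quantile normalization and -0.13 with median centring, so differences are read relative to that shift. The split of called members was then 13 higher and 11 lower with quantile normalization and 14 higher and 11 lower with median centring.

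On the higher side the largest differences, liver minus spleen, were 4.98 ± 0.15 for Abcc2, 4.31 ± 0.14 for Abcc6, whose loss causes ectopic mineralisation, 3.32 ± 0.18 for Abcg5, 3.18 ± 0.41 for Abcb1a, 2.43 ± 0.13 for Abcd3 and 2.11 ± 0.10 for Abcb4 (limma adjusted p of 9.4e-07 or lower for each). Abcb1a was dim in spleen, and its difference went down to 1.65 among the 22 alternatives, all of which kept the call, so its size is uncertain. All 3 bile lipid exporters were higher in liver, Abcg8 by 0.86 ± 0.24. Abcc8 was 2.01 ± 0.18 higher, Abca8 1.87 ± 0.22, Abca8a 1.43 ± 0.14 and Abca4 0.45 ± 0.16. Among the alternatives Abcc8 went down to 0.91, Abca8 to 0.97 and Abcg8 to 0.46, each with the call kept in all 22. Abca4 went down to 0.14 and lost its call in 4 of 22. The sizes of these differences are uncertain too.

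On the lower side stood Abca7 at -4.89 ± 0.51, Abcg1 at -3.30 ± 0.11, Abcc10 at -2.88 ± 0.27, Abcb8 at -2.31 ± 0.20, Abcb10 at -2.16 ± 0.16, Abcg3l1 at -1.76 ± 0.12 and Abcd4 at -1.70 ± 0.18, all with the same sign under quantile normalization and median centring. Abca7 and Abcc10 were dim in liver, with values on 10 and 6 of the 12 livers, and the fit dropped the blanks. With an offset of 64 and blanks at 0 their differences were -2.73 and -1.36, so their sizes are uncertain. The difference of Abcb8 shrank to -1.24 among the alternatives, with the call kept. The ribosomal members Abce1 and Abcf3 were called lower at -0.41 and -0.17, but Abce1 was 0.07 and 0.18 and Abcf3 0.38 and 0.42 under quantile normalization and median centring. Abca1 (-0.09 ± 0.31), Abcg2 (-0.37 ± 0.24), Abcc9 (-0.30 ± 0.25), Abcb6 (0.25 ± 0.20) and Abcd2 (0.00 ± 0.22) did not pass the test.

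**Figure D5:**
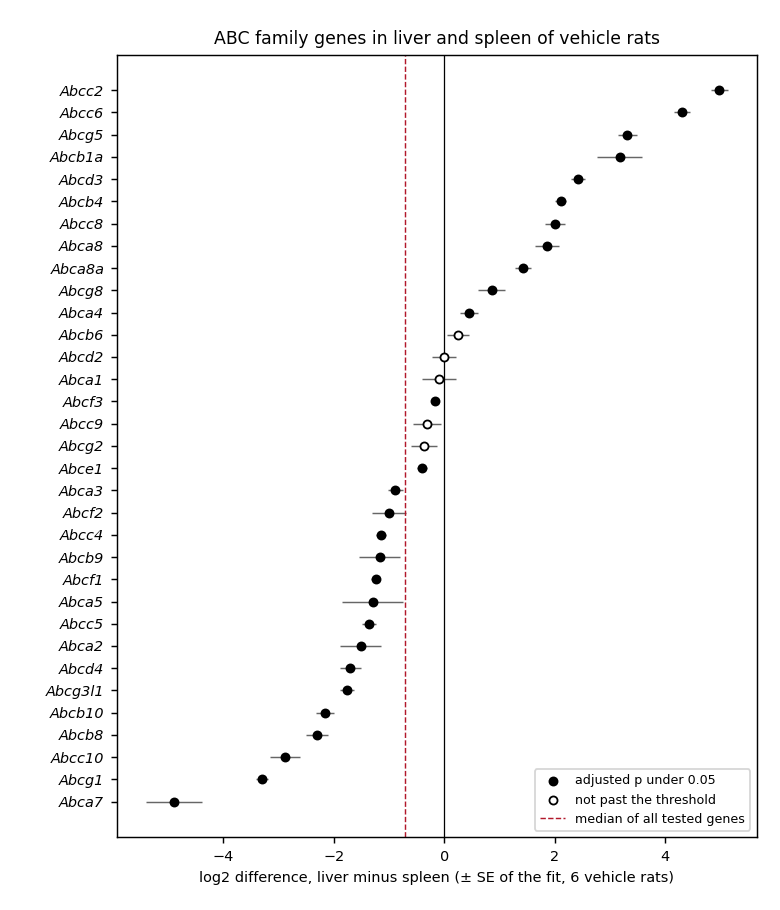
Difference in log2 intensity, liver minus spleen, of 33 ABC genes in the 6 vehicle rats, ordered by size, with bars for the SE and filled points past an adjusted p under 0.05; the dashed line is the median of all tested genes, at -0.72. Abcc2 is highest at 4.98, and the lowest point, Abca7 at -4.89, rests on dim liver values.

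The drug effect differed between spleen and liver for 11 of 33 members (33.3%, against 33.1% of all genes), 9 with a higher and 2 with a lower change in spleen (18.4% and 14.7% of all genes). Abcb10 changed by -1.79 in spleen and -0.12 in liver, a difference of -1.68 ± 0.23 (limma adjusted p = 2.34e-05). Abca8a changed by 1.69 in spleen and 0.22 in liver, a difference of 1.46 ± 0.20 (adjusted p = 1.97e-05). For Abcd3 the difference of 0.59 ± 0.18 (adjusted p = 0.0196) came with -0.00 in spleen and -0.59 in liver.

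Few ABC genes passed the test for wood. In liver 0 of 33 members were called for wood in limma, as were 0.0% of all genes. At an unadjusted p under 0.05 there was 1 member (Abcb6, 0.31 ± 0.07), against 781 of all 12683 genes. For the interaction of drug and wood in liver, 0 members and 0.0% of all genes were called. There 1 member had an unadjusted p under 0.05, against 650 of all genes. In spleen Abcg2 and Abcb10 were called lower with wood, 2 of 36 or 5.56%, against 12.1% of all genes in either direction and 6.05% lower. Abcg2, which exports urate and porphyrins among others, stood at 6.46, 6.74 and 6.63 in cyclophosphamide rats with wood and 6.43, 7.16 and 6.97 in those without, and at 5.69, 6.38 and 6.36 in vehicle rats with wood and 6.89, 7.33 and 7.09 in those without. Vehicle rats with wood were below vehicle rats without it, and the cyclophosphamide rats overlapped. The wood changes were -0.60 ± 0.16 for Abcg2 (limma adjusted p = 0.0424) and -0.69 ± 0.19 for Abcb10 (adjusted p = 0.0452).

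Under vehicle alone 3 members were lower with wood (8.33%, against 15.1% of all genes in either direction and 7.64% lower), namely Abcg2 at -0.96, Abcb10 at -1.10 and Abca8 at -0.79. Under cyclophosphamide none of 36 was called for wood, with 0.0% of all genes called. There 2 members had an unadjusted p under 0.05 in limma, against 1173 of all 13614 genes. All 3 vehicle rats without wood were among the 4 spleen arrays with many blanks, so wood under vehicle and many blanks cannot be told apart within vehicle rats. With a term for those arrays, which rests on the single cyclophosphamide array among them, the wood change was -0.49 for Abcg2 (adjusted p = 0.683) and -0.72 for Abcb10 (adjusted p = 0.578). With any 1 rat left out, 0 or 1 member was called, not always Abcg2 or Abcb10. Each of these 2 genes kept its call in only 1 of the 12 fits without 1 rat. Summed erythroid markers ranged over 14.56 to 14.66 in vehicle spleens with wood and 14.9 to 15.1 in those without, and over 9.98 to 11.5 in cyclophosphamide spleens with wood and 9.50 to 10.4 in those without. None of the 10 tested erythroid markers was called in limma for wood or for the interaction of drug and wood. At an unadjusted p under 0.05 there was 1 for wood, against 4418 of all 13614 genes, and 6 for the interaction, against 1770. The part of these markers in the result was not tested.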

How the data were processed

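Deposited values were log10 intensities of 30980 probe sets per array: the authors' scale and scaling are not given in the sources used here, and log10 was read from a 2142.67-fold span between the 1st and 99th percentile. Values were multiplied to log2, blanks were kept missing and no further scaling was applied. No other value columns were left out. Probe sets naming 1 gene (20792) gave 14201 genes; where a gene had several, the one brightest on average was used, as log2(intensity + 16) with blanks at 0. The members and lists were chosen with earlier results of these data known; 1 gene of the family is not reported here. Group means were fitted per tissue (12 arrays), or on all 24 arrays for tissue contrasts, with lmFit and eBayes of limma 3.58.1 in R 4.3.3; genes needed a value in every group. Permutation tests were two-sided with 100000 resamples (scipy 1.17.1). Scripts were tested on simulated data. Values on every array are given for wood, interaction or liver drug calls, for the 8 largest called rises and falls in spleen and for a fixed set of well-known members. At most 4 partner genes a list are named, and they are not in every list those with the largest changes.

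Rats are separate animals. Liver and spleen with the same number come from 1 rat, per the labels; their deviations from group means correlated at -0.06 to 0.17 over 10530 genes, and were closer than to any other rat of the group in 11 of 12 rats. Alternatives covered normalization, offsets, dim genes, probe set choice, array weights, the blank-rich spleen arrays, the rat as a block and each rat left out.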

Additional observations from a re-analysis of the deposited data

Results flagged for a closer look

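The drug effect differed between spleen and liver, by the test of that difference in the fit of all 24 arrays, for 11 members. As spleen change minus liver change on the log2 scale, the values were 1.53 for Abcc9, 1.46 for Abca8a, 1.16 for Abca8, 0.76 for Abcc5, 0.76 for Abcb4, 0.59 for Abcd3, 0.54 for Abcg3l1, 0.49 for Abcg1 and 0.42 for Abcc4, each a higher signed change in spleen. For Abcd3 the spleen change was -0.00 and the liver change -0.59, which was not called on its own (limma adjusted p = 0.118). They were -1.68 for Abcb10 and -1.35 for Abcc10, whose changes were lower in spleen. In liver Abcc10 had a value in only 1 cyclophosphamide rat with wood (4.80) and 1 vehicle rat with wood (3.78). A fit that needed 2 values in every group could not test it. With probe sets averaged per gene the difference was 0.15 for Abca8 (limma adjusted p = 0.664), 0.039 for Abcc5 (adjusted p = 0.945) and 0.29 for Abcg1 (adjusted p = 0.0504), and these calls were lost. For Abcc5 the other probe set also rose in spleen, by 0.74 ± 0.12. It had a value on only 20 of the 24 arrays, and the average skipped its blanks. Abcc10, dim in liver, missed the threshold with an offset of 16 (-0.91, adjusted p = 0.0861) and with array weights (-1.05, adjusted p = 0.085). Leaving out 1 rat ended the call for Abcc4 (rats 1003 or 3001), Abcd3 (1005 or 4003), Abcg1 (1003 or 2005) and Abcg3l1 (1001, 2003, 4001 or 4005), with adjusted p of 0.0524 to 0.0676. Groups of 3 rats were too small to look for a single array far from its group.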

How the results depend on the processing

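Of 1965 recomputed values of 83 results for single genes, 1856 kept their side of the threshold, 36 of them with a changed sign, all for values that missed the threshold in the reported fit; 100 lost the call, 4 gained one and 5 called values reversed. Abcf3 in spleen reversed to 0.049 with the mean of its probe sets; in liver against spleen Abce1 reversed to 0.065 and 0.18, and Abcf3 to 0.38 and 0.42, with quantile normalization and median centring. Counts of called members moved by over 1.5 times as follows. For the liver drug effect 1 was called among genes at or above the median level and 1 with array weights, against 0. The first was Abcd3, lower, and the second Abca2, higher. For wood in spleen 4 were called with an offset of 64, 4 with a trended, robust fit, 0 with the term for blank-rich arrays and 0 in the other 8, against 2; those 8 hold no vehicle rat without wood, so the wood value there is that of cyclophosphamide rats alone and the drug value that of rats with wood. Among the brighter genes 13 members were called between tissues, against 28, and 7 for the drug effect in spleen against liver, against 11; fewer members (15) were tested there. Leaving out 1 rat gave 19 to 23 calls for the drug in spleen, 0 to 1 for wood in spleen, 25 to 28 between tissues, 9 to 12 for spleen against liver, and 0 to 0 for the liver drug, wood and both interaction results. With the rat as a replicate block, pairing tissues, 27 members were called between tissues and 13 for spleen against liver. The cause of these changes was not tested. The drug effect in spleen kept 18 of 21 calls with the blank term. Dim members, such as Abcb1a in spleen, are the least certain.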
